A study of Mus musculus with 2 samples.

Results

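The genes described here are *Atf4*, the transcription factor of the integrated stress response, and 8 of its known targets or partners, *Ddit3*, *Trib3*, *Asns*, *Chac1*, *Sesn2*, *Gdf15*, *Ddit4* and *Slc7a11*. They are 9 of the 54146 gene rows of the count files and were chosen by name, as classic members of this response. Mouse ES cells labelled as derived from the inner cell mass, wild-type (WT, labelled untreated) or with a *Lin28a* knockout (AKO), were each profiled as 1 inDrop library. Both were grown for 2 days in LIF/2i medium on gelatin with mouse embryonic fibroblasts as feeder cells. Per the study's text, the WT library came from a transfected wild-type clone and the AKO library from a CRISPR/Cas9 knockout clone, so each genotype is represented by a single clone. inDrop captures single cells in droplets and tags each captured transcript with a unique molecular identifier (UMI). Barcodes with at least 500 UMIs and at most 20% of them on mitochondrial genes were kept as cells, which left 1856 WT and 1622 AKO cells. Cells with at least 0.3% of their UMIs on *Col1a1*, *Col1a2* and *Col3a1* were set aside as fibroblasts, 48 in the WT and 23 in the AKO library.

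UMIs of a gene were summed over the cells of a group and divided by the group's total, as counts per 1000000 UMIs (CPM). The kept cells held 11639256 WT and 9340855 AKO UMIs, with medians of 6140 and 5063.5 per cell. Each genotype had 1 library, so there was no replicate and no test. Exact intervals at 95% are given after each value and cover counting error only, so a difference between the libraries cannot be told apart from any other difference between the 2 cultures. A gene was called higher or lower where its CPM differed at least 1.5-fold and the 2 groups compared held at least 200 of its UMIs together. *Lin28a* itself had 107 CPM (100.9 to 113) in the WT and 36.6 (32.8 to 40.7) in the AKO cells, so the library labelled AKO held fewer but not 0 *Lin28a* UMIs. The guide for the knockout was designed against the second exon, while inDrop tags the 3′ end of transcripts, so 3′ UMIs outside the edited part do not check the label. All 12 ES markers examined passed the minimum of 200 UMIs outside the fibroblasts, where *Pou5f1* had 869 CPM in the WT and 1025 in the AKO library. The 18 fibroblast markers summed to 352 WT and 378 AKO CPM outside the fibroblasts. The barcodes carry serial names and no sequence, so barcodes shared by the libraries could not be counted.

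In the integrated stress response, kinases that sense amino acid shortage, unfolded protein in the endoplasmic reticulum, heme shortage or double-stranded RNA phosphorylate the translation factor eIF2. General translation then slows while the *Atf4* mRNA, through upstream open reading frames, is translated more. ATF4 protein pairs with C/EBP factors and other bZIP partners and switches on genes for amino acid synthesis and import, for redox balance and, when stress persists, for cell death. Much of the control of ATF4 is therefore exerted on its translation, which RNA counts do not measure.

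ATF4 and C/EBP partners bind a composite site that joins the core of a C/EBP site to that of an ATF site, written here as TGATGNAA and searched on both strands. RefSeq promoters of GRCm38.p6, from 250 bases before to 50 bases after the gene start, were at hand for all 9 genes. The letters were found in 4 of the 9 genes, against 3.97% of all 32851 promoters. They are shown for the 3 genes in which they lie before the start, since these stretches hold the sequence through which the response is thought to act. Capitals mark the matches.
Chac1 (chr2:119351019-119351086, plus strand): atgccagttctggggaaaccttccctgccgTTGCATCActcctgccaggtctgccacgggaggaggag
Slc7a11 (chr3:50443623-50443709, minus strand): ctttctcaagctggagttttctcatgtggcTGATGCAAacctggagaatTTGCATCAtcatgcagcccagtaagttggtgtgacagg
Asns (chr6:7693215-7693242, minus strand): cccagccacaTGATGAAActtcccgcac
*Slc7a11* held the site in both orientations, *Chac1* as the reverse complement and *Asns* on the strand of the gene. The stretch of *Asns* lies before the RefSeq start but inside the longer GENCODE gene. In *Trib3* the match lay after the start and is not shown. The letters TGACNNNGC of the antioxidant response element, bound by NRF2, were in the promoters of *Sesn2* and *Asns* and in 12.4% of all promoters. A match is a description of the letters and no evidence of binding in these cells.

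The design sets AKO against WT cells. Outside the fibroblasts, 8 of the 9 genes had a CPM ratio of AKO over WT whose interval lay above 1, beside 30.5% of all genes tested, and 2 of them, *Chac1* and *Gdf15*, were past 1.5-fold. None was past 1.5-fold lower. With fibroblasts kept in, 5 of the 9 intervals lay above 1, beside 29.9% of all genes, and those of *Ddit3*, *Sesn2*, *Ddit4* and *Slc7a11* included 1. Of the 9643 genes with at least 200 UMIs, 6.88% were called higher and 7.89% lower. The median ratio was 1.25 over the 9 genes and 1.02 over all genes tested. With the fibroblasts, the same 2 genes were called higher, beside 6.50% of all genes higher and 8.50% lower.

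*Chac1* (ENSMUSG00000027313.3, chromosome 2 from 119351229 to 119354381 of GRCm38, plus strand) encodes an enzyme that degrades glutathione. It had 20.6 CPM (18.0 to 23.4) in WT and 34.8 CPM (31.1 to 38.8) in AKO cells, a ratio of 1.69 (1.42 to 2.01). *Gdf15* (ENSMUSG00000038508.7, chromosome 8 from 70629393 to 70632456, minus strand) encodes a secreted stress cytokine. It had 12.4 CPM (10.4 to 14.6) in WT and 23.1 CPM (20.1 to 26.4) in AKO cells, a ratio of 1.86 (1.5 to 2.32). These were among the rarer genes of the group, *Chac1* with 231 WT and 321 AKO UMIs and *Gdf15* with 139 and 213, and the intervals of the 2 libraries did not overlap for either.

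*Atf4* (ENSMUSG00000042406.8, chromosome 15 from 80255184 to 80257541, plus strand) had 292 CPM (282 to 302) in WT and 358 CPM (346 to 370) in AKO cells, a ratio of 1.23 (1.17 to 1.29). *Asns* (ENSMUSG00000029752.12, chromosome 6 from 7675169 to 7693254, minus strand), which encodes asparagine synthetase and is among the best known *Atf4* targets, had 254 CPM (245 to 264) and 359 CPM (347 to 371), a ratio of 1.41 (1.34 to 1.49). Both genes were thus higher in the AKO library by less than 1.5-fold, with intervals that do not overlap. *Trib3* (ENSMUSG00000032715.9, chromosome 2 from 152337422 to 152344032, minus strand) encodes a pseudokinase that binds and restrains ATF4. Its levels were 53.8 CPM (49.6 to 58.3) and 67.1 CPM (61.9 to 72.6), a ratio of 1.25 (1.11 to 1.40).

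*Slc7a11* (ENSMUSG00000027737.10, chromosome 3 from 49892526 to 50443614, minus strand), the cystine importer of system xc-, had 23.4 CPM (20.6 to 26.4) in WT and 28.1 (24.8 to 31.7) in AKO cells. *Ddit4* (ENSMUSG00000020108.4, chromosome 10 from 59949669 to 59951834, minus strand), also known as *Redd1*, restrains mTORC1 and had 31.4 CPM (28.2 to 34.9) and 40.5 CPM (36.5 to 44.9). *Sesn2* (ENSMUSG00000028893.8, chromosome 4 from 132492032 to 132510501, minus strand), a leucine sensor that also restrains mTORC1, had 140 CPM (133 to 147) and 151 CPM (144 to 160). The levels of *Slc7a11* and *Sesn2* overlapped between the libraries within their intervals, while those of *Ddit4* did not. Their ratios were 1.20 (1.01 to 1.43) for *Slc7a11*, 1.29 (1.11 to 1.5) for *Ddit4* and 1.08 (1.01 to 1.16) for *Sesn2*.

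*Ddit3* (ENSMUSG00000025408.15, chromosome 10 from 127290774 to 127296288, plus strand) encodes CHOP, the bZIP factor of the late, death-promoting arm of the response. It had 15.9 CPM (13.6 to 18.4) in WT and 16.2 CPM (13.7 to 19.0) in AKO cells, a ratio of 1.02 (0.812 to 1.27). A difference in *Ddit3* was not detectable at this depth outside the fibroblasts. With fibroblasts kept in, its ratio was 0.862 (0.699 to 1.06), and those of *Sesn2* at 1.06 (0.989 to 1.14), *Ddit4* at 1.14 (0.991 to 1.31) and *Slc7a11* at 1.17 (0.989 to 1.39) also had intervals that included 1. A second Ensembl identifier that overlaps *Ddit3* had 1 UMI in the AKO and 0 in the WT library and was added to it.

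**Figure D1:**
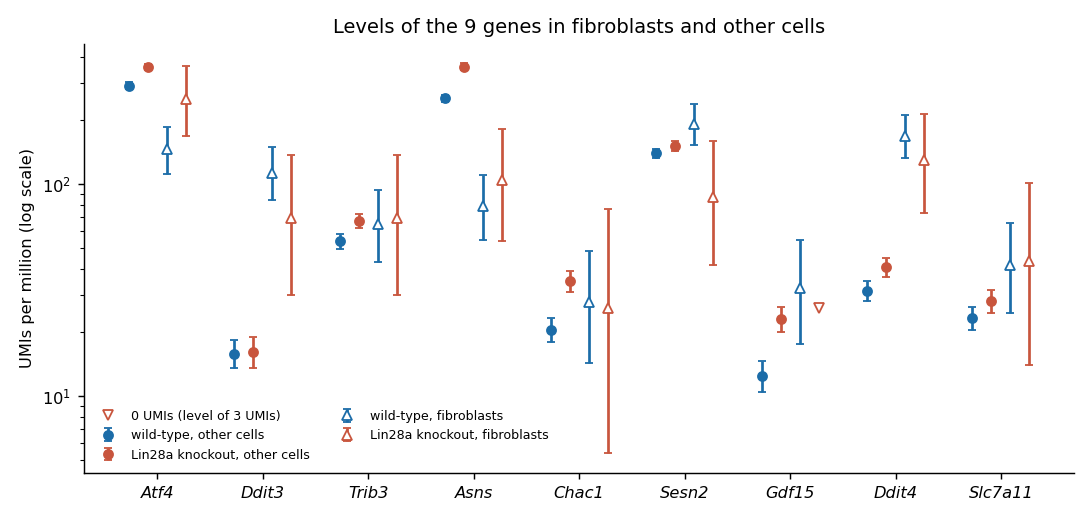
CPM of the 9 genes on a log axis in WT (blue) and AKO (red) cells, with circles for cells outside the fibroblasts, open triangles for fibroblasts and bars for exact 95% Poisson intervals. *Ddit4* sat higher in fibroblasts and *Asns* lower in both libraries, and the inverted triangle stands where 3 UMIs would lie, since AKO fibroblasts had 0 *Gdf15* UMIs.

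*Atf4* UMIs were found in 71.9% of WT cells (69.8 to 73.9, exact binomial) and 60.9% of AKO cells (58.4 to 63.2), an order opposite to that of its CPM. When each cell was taken at 500 UMIs, the expected shares were 12.9% and 14.4%, in the order of the CPM. For *Asns* the shares at 500 UMIs were 11.6% and 18.0%, and for *Gdf15* 0.601% and 1.20%. As a guide to free RNA in the droplets, *Lin28a*, which fibroblasts should lack, had a UMI in 3 of 48 WT fibroblasts, with a median depth of 8131.5 UMIs, and in 2 of 23 AKO fibroblasts, with 2295. Over the other cells, *Pou5f1* had a ratio of 0.0534 (0.0326 to 0.0824) in WT and 0.170 (0.104 to 0.262) in AKO fibroblasts. *Nanog* had 0.0776 and 0.235, but *Zfp42* had 0.0350 and 0.0311 and *Dppa5a* 0.0760 and 0.0729. How much ES cell RNA the AKO fibroblast levels hold was not tested, which limits their reading beside WT fibroblasts.

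The feeder fibroblasts differed from the other cells in several of these genes, although they made up 2.59% of the kept WT and 1.42% of the kept AKO cells. Their collagen levels chose them, with *Col1a1* at 12488 CPM against 17.9 outside them in the WT library. *Ddit3* had 113.5 CPM (84.0 to 150) in WT fibroblasts against 15.9 in the other WT cells, a 7.15-fold ratio (5.10 to 9.86). In AKO fibroblasts its 8 UMIs gave 69.5 CPM against 16.2, a ratio of 4.30 (1.82 to 8.70). These *Ddit3* values are a description and not calls. The WT library reached 200 UMIs only with the 49 of the fibroblasts, as the other cells held 178, and the AKO library held 8 and 149, too few for a call.

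*Ddit4* was higher in fibroblasts, at 169 CPM (133 to 213) against 31.4 in the WT library and at 130 CPM (72.9 to 215) against 40.5 in the AKO library. *Asns* was lower, at 78.8 CPM (54.6 to 110) against 254 in the WT library and at 104 CPM (53.9 to 182) against 359 in the AKO library. *Atf4* had 146 CPM (112 to 187) in WT and 252 CPM (169 to 362) in AKO fibroblasts, and was called lower only in the WT library.

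*Ddit4* and *Slc7a11* were called higher in WT fibroblasts and *Atf4* and *Asns* lower, beside 19.1% of all genes higher and 44.5% lower. In AKO fibroblasts *Ddit4* and *Slc7a11* were called higher and *Asns* and *Sesn2* lower, beside 16.6% higher and 45.1% lower. The median ratio of fibroblasts over other cells across all genes tested was 0.731 in the WT and 0.728 in the AKO library. *Gdf15* had 0 UMIs in AKO fibroblasts, where 3 UMIs would be 26.1 CPM, above the level of the other cells, so a lower level was not detectable and no fold is given. The *Slc7a11* call in AKO fibroblasts rested on 5 UMIs, with a ratio of 1.55 (0.498 to 3.66). The cell with the most *Ddit3* was a WT fibroblast of 26809 UMIs with 12 of them. The next highest had 8, and without the first cell the level over all kept WT cells was 18.5 CPM in place of 19.5.

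Among genes related to the response, the medians of 6 lists lay from 0.861 to 1.14. None of the 12 upstream genes (eIF2 kinases, eIF2 and eIF2B subunits and the eIF2 phosphatase subunits *Ppp1r15a* and *Ppp1r15b*) was past 1.5-fold, with a median ratio of 0.973. The largest ratio was that of *Eif2ak2*, the kinase that senses double-stranded RNA, with 28.0 CPM in WT and 39.3 in AKO cells, a ratio of 1.40 (1.20 to 1.64). In the other direction, the eIF2 subunit gene *Eif2s1* had 131 CPM in WT and 102 in AKO cells, and the eIF2B subunit gene *Eif2b3* 39.4 and 30.8. Among bZIP factors and other partners of ATF4, 2 of the 6 with enough UMIs were higher and 1 was lower. *Atf5*, a factor translated like *Atf4*, had a ratio of 1.79 (1.53 to 2.10), *Cebpb*, a C/EBP partner, 1.74 (1.43 to 2.12) and *Nfe2l2*, the gene of NRF2, 0.625 (0.576 to 0.679). *Cebpb* turned to 0.831 (0.714 to 0.966) with fibroblasts kept in, and had 605 CPM in WT fibroblasts against 15.5 in the other WT cells. With fibroblasts kept in, *Atf5* had 1.53 (1.32 to 1.76) and *Nfe2l2* 0.618 (0.570 to 0.670). *Atf3* had 48 WT and 87 AKO UMIs, a ratio of 2.20 (1.53 to 3.20), but too few UMIs in all for a call.

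Known *Atf4* targets outside the 9 genes fell into 4 lists. None of 13 aminoacyl-tRNA synthetase and tRNA export genes was past 1.5-fold, and their median was 0.984. None of 7 amino acid transporters was either, with a median of 1.03 and ratios on both sides of 1. *Slc7a5*, a leucine importer, had 1.41 (1.32 to 1.5) and *Slc1a5*, a glutamine importer, 1.40 (1.29 to 1.52), while *Slc38a2*, another neutral amino acid importer, had 0.709 (0.668 to 0.753) and *Slc7a1*, an arginine importer, 0.788 (0.724 to 0.859). *Slc6a9*, a glycine transporter, had 1.52 (1.15 to 2.02) with fibroblasts kept in and reached 200 UMIs only through the AKO cells. Of 8 genes of serine, proline and folate-linked synthesis 1 was past 1.5-fold, *Pycr1* of proline synthesis at 1.76 (1.32 to 2.35), on 83 WT and 120 AKO UMIs, and the median was 1.08. Of 6 other targets 1 was past 1.5-fold, *Stc2*, which encodes a secreted glycoprotein, at 1.63 (1.25 to 2.14), on 99 and 133 UMIs, with a median of 1.14. At the WT level in both libraries *Pycr1* would have held 151 and *Stc2* 180 UMIs, so each reached 200 only through the AKO cells, and the values, counts and medians of these lists are a description.

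**Figure D2:**
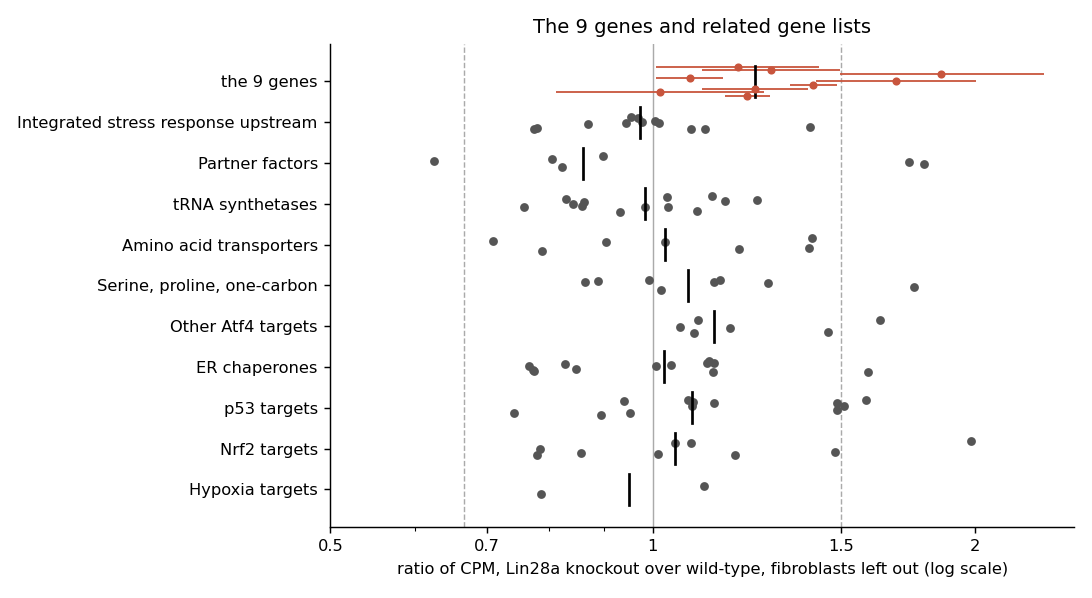
Ratio of CPM, AKO over WT, on a log axis for the 9 genes (red, with exact 95% intervals, in the order *Atf4* to *Slc7a11* from below) and for genes with at least 200 UMIs in 10 related lists (grey), with a black bar at each list's median. The median of the 9 genes, 1.25, lay to the right of every other list's median, and dashed lines mark 1.5-fold in each direction.

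Cells differed in how many of their UMIs came from the 91 ribosomal protein genes (RP share), and several of the 9 genes varied with it. Cells under 10% RP share numbered 934 in the WT and 626 in the AKO library, against 874 and 973 others. *Atf4* had 234 CPM (222 to 247) in WT cells under 10% and 351 (336 to 367) in the others, a ratio of 0.668 (0.622 to 0.716). In the AKO library it had 257 CPM (240 to 275) and 415 (399 to 432), a ratio of 0.618 (0.572 to 0.669). The mRNA of the transcription factor was therefore less frequent in cells with few RP transcripts, in both libraries.

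*Asns* had 197 CPM (185 to 209) in WT cells under 10% and 313 (299 to 328) in the others, and 238 (222 to 255) and 428 (411 to 445) in the AKO library. *Trib3* had 41.5 CPM (36.4 to 47.1) and 66.5 (59.9 to 73.7) in the WT library, and 48.7 (41.5 to 56.8) and 77.5 (70.6 to 85.0) in the AKO library. Both genes thus stood in the same order as *Atf4* between these groups of cells. *Slc7a11* went the other way, with 28.3 CPM (24.1 to 33.0) and 18.3 (14.9 to 22.2) in the WT library and 34.1 (28.1 to 41.0) and 24.7 (20.8 to 29.0) in the AKO library. The AKO part of that order turned to a ratio of 0.912 (0.547 to 1.47) in cells of 5000 to 10000 UMIs.

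In WT cells under 10% RP share, 2 of the 7 genes with enough UMIs were called lower (*Asns* and *Trib3*, with *Atf4* just short of the limit) and 1 higher (*Slc7a11*), beside 12.7% of all genes lower and 25.3% higher. *Gdf15* had too few WT UMIs for a call, with 8.09 CPM against 16.9, a ratio of 0.480 (0.329 to 0.690). In the AKO library 3 of 8 were called lower (*Atf4*, *Asns* and *Trib3*) and 0 higher, beside 16.2% lower and 30.1% higher. The median ratio of all genes tested was 1.09 in each library, and RP genes hold fewer UMIs in these cells by construction. Depth differed too, with a median of 2924.5 UMIs in AKO cells under 10% and 5580 in the others. Within 5000 to 10000 UMIs the *Asns* ratio was 0.654 (0.595 to 0.719) in the WT and 0.560 (0.487 to 0.641) in the AKO library.

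In bins of RP share the levels of *Atf4*, *Asns* and *Trib3* stood in 1 order from 5% upwards in both libraries. WT *Asns* had 198 CPM at 5 to 10%, 243 at 10 to 15% and 459 (428 to 492) at 15% or more. AKO *Asns* had 238, 317 and 605 CPM (573 to 638) in the same bins. *Atf4* had 235, 311 and 436 CPM in the WT and 271, 321 and 566 CPM in the AKO library, so the largest step came at 15% for both genes. *Sesn2* had 131, 136 and 177 CPM and 127, 142 and 203 CPM. *Chac1* had no such order, with 19.2, 25.2 and 15.7 CPM in the WT and 41.8, 35.6 and 27.5 CPM in the AKO library.

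**Figure D3:**
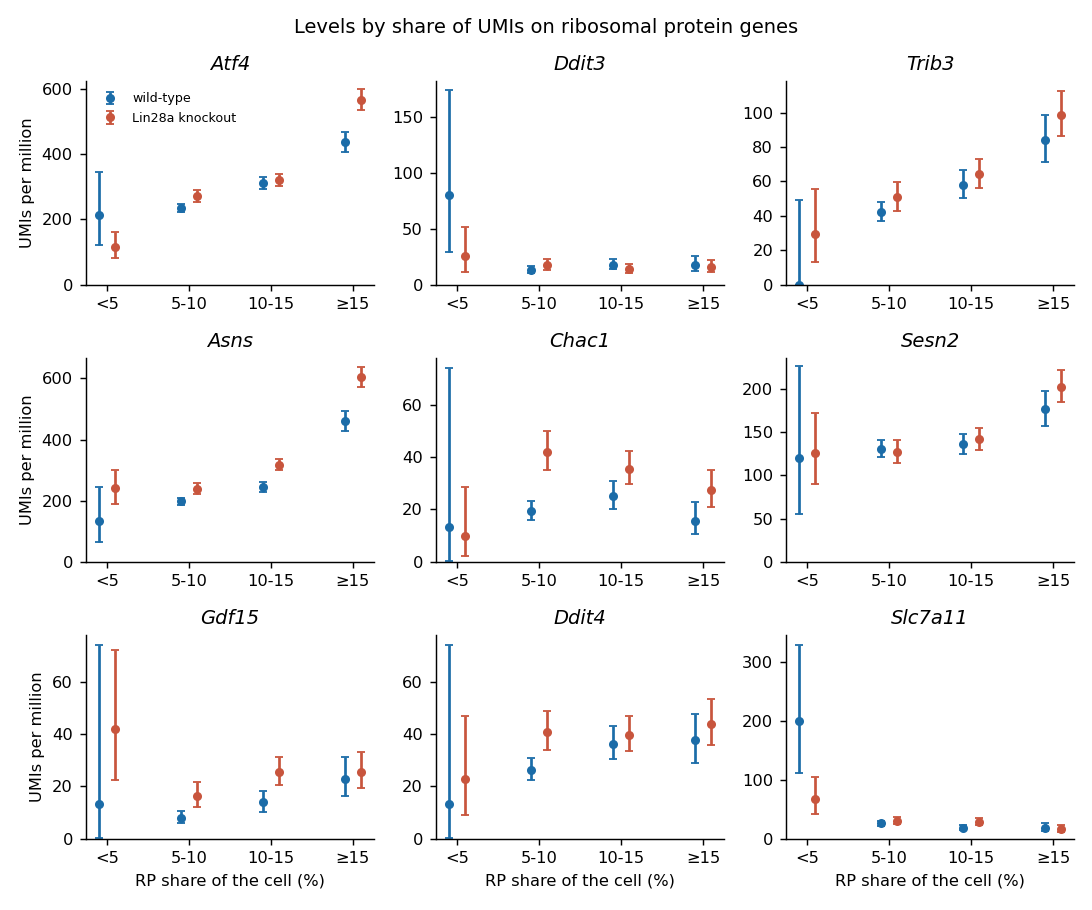
CPM of each gene by RP share of the cell (4 bins) in WT (blue) and AKO (red) cells, fibroblasts left out, with exact 95% Poisson intervals. *Atf4*, *Asns* and *Trib3* were highest at 15% or more in both libraries, while *Slc7a11* was highest under 5%, where the 82 WT and 222 AKO cells were shallow.

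Mitochondrial share moved with RP share. In cells at 15% or more RP share, 234 WT and 381 AKO cells, a median of 0.184% and 0.275% of UMIs were mitochondrial, against 1.74% and 2.54% in cells at 5 to 10%. A limit of 0.5% mitochondrial share, set after these values were seen, split the cells further. At 15% or more RP share, WT *Asns* had 490 CPM (456 to 526) in 196 cells under 0.5% and 244 (183 to 319) in 38 cells at 0.5% or more. AKO *Asns* had 663 CPM (626 to 702) in 280 cells and 391 (338 to 451) in 101 cells. At 10 to 15% RP share, AKO *Asns* had 764 CPM (590 to 974) in 44 cells under 0.5%, with a median of 892.5 UMIs, and 306 (288 to 325) in 548 cells at 0.5% or more, while WT *Asns* had 239 (188 to 301) and 244 (227 to 261). *Asns* was thus higher in cells of low mitochondrial share in both AKO bins, and in WT cells at 15% or more.

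*Atf4* had 446 CPM (413 to 480) and 366 (291 to 455) in the same WT cells, and 614 (578 to 652) and 391 (338 to 451) in the AKO cells. Among cells at 0.5% mitochondrial share or more, the ratio of cells under 10% RP share to the others was 0.783 (0.723 to 0.849) for *Atf4* and 0.804 (0.735 to 0.879) for *Asns* in the WT library. In the AKO library it was 0.784 (0.719 to 0.855) and 0.753 (0.688 to 0.823). In these cells 0 of the 6 WT and 0 of the 7 AKO genes with enough UMIs were called, beside 12.3% of all genes higher and 2.89% lower in WT and 18.9% higher and 6.51% lower in AKO cells. *Gdf15*, with too few UMIs, had a WT ratio of 0.536 (0.353 to 0.811), and *Slc7a11* stood just short of the limit in WT cells at 1.49 (1.12 to 2.01). No call by RP share was therefore left without the cells of lowest mitochondrial share. The part of mitochondrial share in the relation to RP share was not tested.

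**Figure D4:**
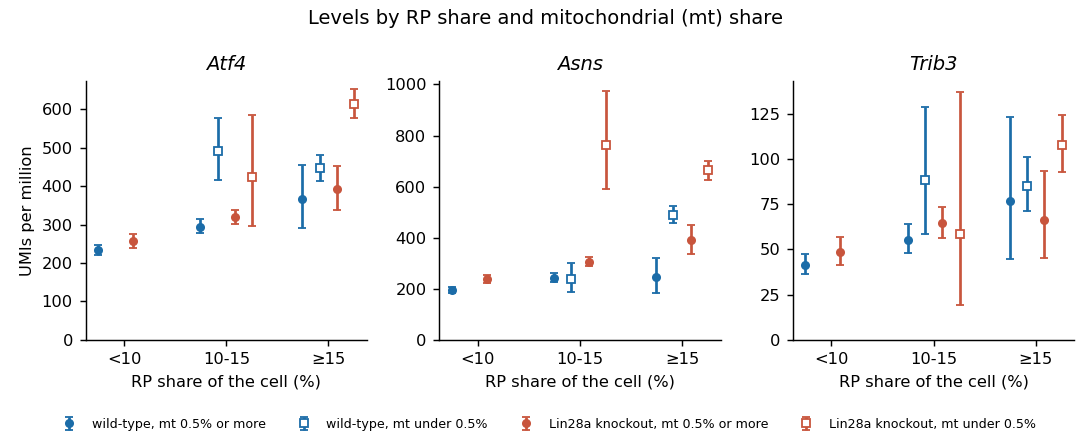
CPM of *Atf4*, *Asns* and *Trib3* by RP share (3 bins) in WT (blue) and AKO (red) cells at 0.5% mitochondrial share or more (filled circles) and under it (open squares), with exact 95% Poisson intervals; groups of under 20 cells are left out. *Asns* in cells at 15% or more RP share was higher under 0.5% in both libraries, 490 against 244 CPM and 663 against 391 CPM.

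The ratio of AKO over WT was also read by RP share, whatever the mitochondrial share. In cells under 15% RP share it was 1.10 (1.03 to 1.16) for *Atf4* and 1.30 (1.22 to 1.38) for *Asns*, both nearer to 1 than over all cells outside the fibroblasts. *Chac1* at 1.73 (1.43 to 2.08) and *Gdf15* at 2.14 (1.65 to 2.78) stayed past 1.5-fold there. *Gdf15* reached 200 UMIs in these cells only through the AKO library, so its value is a description. Within the bins of 5 to 10%, 10 to 15% and 15% or more, *Chac1* had ratios of 2.17 (1.67 to 2.84), 1.41 (1.08 to 1.86) and 1.75 (1.10 to 2.84). *Gdf15* had 2.05 (1.35 to 3.15), 1.82 (1.28 to 2.61) and 1.12 (0.737 to 1.71). *Atf4* had 1.15 (1.06 to 1.26), 1.03 (0.952 to 1.12) and 1.30 (1.19 to 1.42), and *Asns* 1.21 (1.10 to 1.33), 1.30 (1.19 to 1.42) and 1.32 (1.21 to 1.44). At 10 to 15% the intervals of *Atf4*, *Ddit3*, *Trib3*, *Sesn2* and *Ddit4* included 1. Of the 9 genes in these bins, *Chac1* and *Ddit4*, the latter at 1.55 (1.21 to 1.98), met the rule for a call at 5 to 10%, beside 4.50% of all genes higher. At 10 to 15% 0 did, beside 4.22% of all genes higher and 6.32% lower. At 15% or more 0 did, beside 4.07% higher and 6.61% lower. *Chac1* at 5 to 10% had 108 WT and 127 AKO UMIs and would have held 166 at the WT level in both. It thus reached 200 only through the AKO cells and its value is a description. *Slc7a11* at 10 to 15% had 1.61 (1.17 to 2.21), on 68 WT and 106 AKO UMIs, too few for a call. *Chac1* at 10 to 15% was under 1.5-fold, and *Chac1* at 15% or more, with 28 WT and 62 AKO UMIs, and *Gdf15* in all 3 bins held fewer than 200 UMIs.

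*Slc7a11* stood apart from the other 8 genes in the shallow barcodes that the limit of 500 UMIs removes. In these 2472 WT barcodes, with a median of 147 UMIs, it had 353 CPM against 23.4 in the kept cells outside the fibroblasts, a 15.1-fold ratio (12.3 to 18.5). In 4423 AKO barcodes it had 257 CPM against 28.1, a 9.15-fold ratio (7.51 to 11.1). They held 35.6% of all WT and 39.5% of all AKO *Slc7a11* UMIs, but 3.63% and 6.71% of all UMIs. The cystine importer was therefore the only 1 of the 9 genes called higher there in either library, beside 10.6% of all genes higher and 33.1% lower in the WT and 11.0% higher and 26.0% lower in the AKO library.

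Of the other genes, 0 were called lower in WT and 3 in AKO shallow barcodes, *Atf4* at 0.664 (0.563 to 0.778), *Trib3* at 0.620 (0.409 to 0.905) and *Ddit4* at 0.366 (0.174 to 0.681). This *Ddit4* value rested on 10 UMIs in shallow barcodes and reached 200 in all only through the kept cells, so it is a description. *Ddit3* had too few UMIs for a call, with ratios of 1.58 (0.773 to 2.89) and 1.93 (1.16 to 3.06). *Slc7a11* ranked 27 of 7418 genes by this ratio in the WT and 34 of 6949 in the AKO library. Of the 50 genes with the highest ratio, 14 in the WT and 13 in the AKO library were protein-coding, against 84.8% and 84.3% of the genes tested. *Col1a1* was first in both, but the kept cells it was set against had been chosen for low collagen, so its rank is not read. The *Slc7a11* UMIs were spread over 140 WT and 165 AKO barcodes, with at most 3 in any of them. The annotated gene is long and overlaps 5 other annotated genes, and which part of it the UMIs came from was not analysed here.

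The level of *Slc7a11* was lower in deep than in shallow barcodes. WT *Slc7a11* had 442 CPM (360 to 536) in barcodes of 200 to 500 UMIs, 154 (86.1 to 254) at 500 to 1000 and 21.3 (18.1 to 25.0) at 5000 to 10000. AKO *Slc7a11* had 220 CPM (168 to 283), 37.5 (16.2 to 73.8) and 25.0 (20.1 to 30.7). With a minimum of 1000 UMIs the WT ratio of cells under 10% RP share to the others was 1.45 (1.12 to 1.90) and no longer past 1.5-fold. The *Slc7a11* level in cells of low RP share is therefore to be read beside its level in shallow barcodes, whose part in it was not tested.

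**Figure D5:**
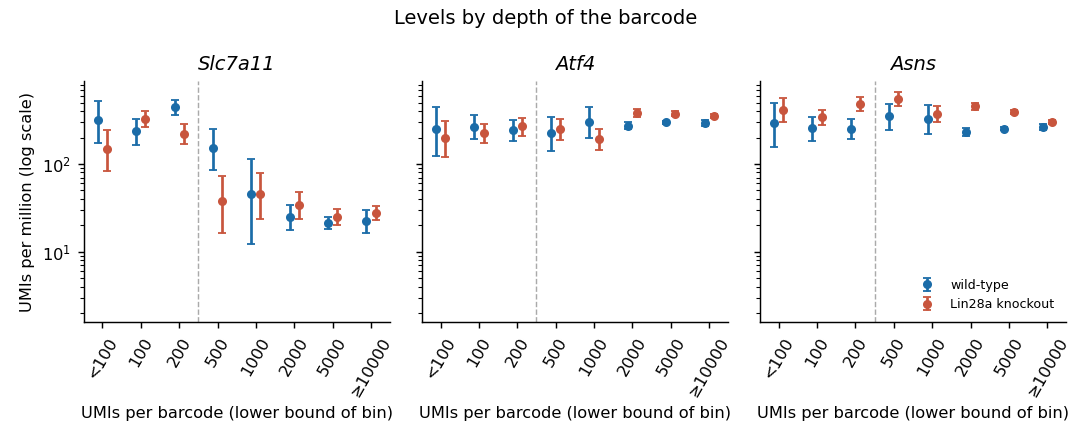
CPM on a log axis of *Slc7a11*, *Atf4* and *Asns* by UMIs per barcode in the WT (blue) and AKO (red) library, fibroblasts left out above 500 UMIs, with exact 95% Poisson intervals and a dashed line at the limit for kept cells. *Slc7a11* had 442 CPM in WT barcodes of 200 to 500 UMIs and 21.3 CPM in those of 5000 to 10000, while *Atf4* and *Asns* showed no such drop.

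Whether the 9 genes were raised in the same cells was examined in cells of at least 5000 UMIs outside the fibroblasts, 1196 WT and 812 AKO cells. The 10% of them with the largest summed share of the 9 genes, 120 and 82 cells, were chosen by that share, so only other measures are read in them. Their median RP share was 15.97% in the WT and 17.7% in the AKO library, against 9.81% and 10.7% in the remaining cells. Of their UMIs a median of 0.362% and 0.245% were mitochondrial, against 1.37% and 1.77% in the rest. *Atf4* with 557 and *Asns* with 552 UMIs held most of the summed share in the rich WT cells, as they did with 537 each in the rich AKO cells, so these differences are not separate from those of *Atf4* and *Asns* by RP share.

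Of the 30 genes with enough UMIs in the 4 target lists, 4 were higher and 5 lower in the rich WT cells, beside 8.08% of all genes higher and 26.4% lower. In the rich AKO cells 7 were higher and 8 lower, beside 13.3% higher and 35.6% lower. *Eif4ebp1*, a translation repressor, was higher in both libraries, with ratios of 1.53 (1.38 to 1.69) and 1.75 (1.56 to 1.95), as was *Phgdh*, the first enzyme of serine synthesis, at 1.60 (1.30 to 1.94) and 1.95 (1.58 to 2.39). *Psat1*, the next enzyme of that pathway, was lower, at 0.603 (0.483 to 0.745) and 0.340 (0.243 to 0.464), and so was *Cth* of cysteine synthesis, at 0.666 (0.568 to 0.776) and 0.483 (0.384 to 0.600). Enzymes of serine synthesis thus lay on both sides of 1. The median ratio of rich over other cells across the 30 targets was 1.14 in the WT and 1.13 in the AKO library, beside 0.900 and 0.879 across all genes tested.

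Over these cells, genes whose level was among the most like the summed level of the 9 were *Rack1*, which encodes a protein of the small ribosomal subunit, *Rps18*, *Rps26* and *Rps9*, of 5774 genes ranked. Pearson's r of log-normalised levels was 0.329 in the WT and 0.432 in the AKO library for *Rack1*, and 0.310 and 0.432 for *Rps9*. These values describe sparse counts of cells that share a library and differ in depth and RP share.

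Pairs of genes were compared in cells of 5000 to 10000 UMIs, 1 gene's CPM in cells with a UMI of the other over its CPM in cells without. Of 72 ordered pairs, 58 had a ratio above 1 in the WT and 44 in the AKO library, with intervals wholly above 1 for 19 and 18 and wholly below 1 for 0 and 5. Each pair enters in both directions and no such count was made for other genes, so these counts are a description of the 9 genes alone. *Chac1* was 1.99-fold higher (1.38 to 2.82) in WT cells with *Ddit4* and 1.72-fold (1.18 to 2.48) in AKO cells with it. *Chac1* was also higher in cells with *Gdf15*, 2.05-fold (1.26 to 3.21) and 1.99-fold (1.30 to 2.97). All 6 ordered pairs of *Chac1*, *Gdf15* and *Ddit4* had ratios above 1 in both libraries, and only that of *Gdf15* in AKO cells with *Chac1*, 1.40 (0.819 to 2.3), had an interval that included 1.

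The 5 intervals wholly below 1 were all in the AKO library. In AKO cells with *Asns*, *Chac1* had 31.9 CPM against 62.0 in cells without, a ratio of 0.514 (0.340 to 0.796). In AKO cells with *Slc7a11*, *Atf4* had a ratio of 0.820 (0.705 to 0.951) and *Ddit4* of 0.617 (0.366 to 0.988). *Slc7a11* had 0.540 (0.282 to 0.961) in AKO cells with *Ddit4*, and *Sesn2* had 0.720 (0.564 to 0.910) in those with *Chac1*. In WT cells no pair with *Slc7a11* or *Asns* as the marking gene had an interval that left out 1. Few cells had a UMI of the rarer genes, 75 WT and 71 AKO cells for *Gdf15*, so these intervals are wide.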

How the data were processed

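Single-cell RNA-seq counts were analysed from 1 WT and 1 AKO inDrop library. The authors deposited a table of raw UMI counts per gene and barcode for each library, made with the published inDrop pipeline, and the submitters' processing notes name mm10 and Seurat 2.3.4. Aligner settings and annotation are not given in the sources used here. Gene IDs were named with GENCODE annotation of GRCm38, which matched 54079 of 54146 rows. All columns belonged to a sample, and 0 were left out for lack of one.

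Barcodes with at least 500 UMIs and at most 20% mitochondrial UMIs were kept, as in the study. Doublets were kept in, and Scrublet, run as an alternative, marked 1.45% of WT and 1.11% of AKO cells. UMIs were summed per gene and group of cells, with exact Poisson intervals for CPM, exact binomial intervals for shares (Clopper-Pearson) and exact conditional intervals for ratios, all at 95%. Shares at 500 UMIs are expectations under sampling each cell without replacement. A count of 0 was set against a floor of 3 UMIs. With 1 library per group no test was made. Calculations used Python 3.11.15 with scipy 1.17.1, numpy 2.4.6, scanpy 1.11.5, matplotlib 3.10.9 and pandas 2.3.3. The ratio code was tested on simulated data with counting error only, after scaling by the median ratio, which the calls here did not use.

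The 9 genes and all gene lists were chosen with earlier results of these data known. The text names all 9 genes, up to 4 genes of each list with the largest ratios in either direction, and, of the 5 genes whose level over cells was most like the sum of the 9, all but 1, which is not reported here. The target genes and pairs named in the cells rich in UMIs of the 9 genes were chosen after their values were seen. Alternatives changed the UMI minimum, mitochondrial limit, doublets, scaling, denominator, fibroblast limit, RP limit, depth range, fold and share of rich cells.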

Additional observations from a re-analysis of the deposited data

Results flagged for a closer look

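Several ratios pointed opposite ways in the WT and AKO libraries. None of these differences between libraries was tested, and each ratio is given with its interval for counting error. In cells under 10% RP share over the others, *Ddit3* had 0.792 (0.582 to 1.07) in WT and 1.22 (0.865 to 1.71) in AKO cells, with fewer than 200 UMIs in each library, and *Chac1* had 0.867 (0.663 to 1.13) and 1.20 (0.951 to 1.5). The AKO ratio of *Chac1* was 0.997 with scaling by the median of ratios.

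In fibroblasts over the other cells, *Chac1* had 1.35 (0.687 to 2.40) in WT and 0.749 (0.154 to 2.21) in AKO cells, the latter on 3 fibroblast UMIs. *Sesn2* had 1.38 (1.09 to 1.72) in WT and 0.574 (0.274 to 1.06) in AKO cells. How much ES cell RNA the AKO fibroblasts held was not tested. In barcodes under 500 UMIs over the kept cells, *Sesn2* had 0.929 (0.7 to 1.21) in WT and 1.13 (0.925 to 1.37) in AKO barcodes. Most of these intervals include 1. *Gdf15* had 2.62 (1.39 to 4.54) in WT fibroblasts, on 14 UMIs and with too few in all for a call, and 0 UMIs in AKO fibroblasts, where a lower level was not detectable, so no opposite direction was shown for it.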

How the results depend on the processing

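The AKO over WT ratios of *Chac1* and *Gdf15* stayed past 1.5-fold under every alternative run. Outside the fibroblasts they ranged from 1.62 to 1.74 for *Chac1* and from 1.77 to 2.14 for *Gdf15*. The *Gdf15* value of 2.14 was that of cells under 15% RP share. There the gene reached the minimum of UMIs only through the AKO library, so that value is a description and not a call. With a fold of 2, 0 of the 9 genes were called between libraries (all kept cells and without fibroblasts) or by RP share in either library. The shares of all genes past a fold of 2 are not given here, so nothing is read from this count. Among cells of 0.5% mitochondrial share or more, an alternative chosen after seeing the data, 0 were called by RP share in either library, against 3 and 3. An RP limit of 5% gave more calls in both libraries, with few UMIs on the low side, and one of 15% gave more in AKO cells. The shares of all genes called under these limits are not given here, so nothing is read from these calls. Scaling by the median of ratios gave 5 in AKO cells, all lower, where it moved the median of all genes from 1.09 to 0.908 and the split of calls from 30.1% higher and 16.2% lower to 18.2% and 29.7%. Taking the top 20% of cells as rich gave 2 target genes higher in WT and 2 in AKO cells, against 4 and 7. The shares of all genes called at the top 20% are not given here, so this drop is not read as particular to the targets. The causes were not tested. The other 44 alternatives for counts of calls stayed within 1.5 times, and of the ratios of single genes 425 moved by less than counting error, 43 by more, and 0 reversed a call. *Slc7a11* lost its WT call by RP share under several alternatives, among them a minimum of 1000 UMIs, at 1.45, and an RP limit of 15%, at 1.31.

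No paired analysis was possible because each group had 1 library. Depth limits the rarer genes most, and with 1 line and 1 library per genotype the spread between cultures was not measured.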

Other observations

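Of 12 endoplasmic reticulum chaperone and related genes of the other unfolded protein response branches, 1 was higher in the AKO library outside the fibroblasts, *Sdf2l1* at 1.59 (1.37 to 1.85), and the largest ratios in the other direction were those of the co-chaperone gene *Dnajb9* at 0.767 (0.635 to 0.925), the chaperone gene *Hsp90b1* at 0.774 (0.734 to 0.815) and the sensor gene *Atf6* at 0.774 (0.631 to 0.948). Of 12 p53 targets 2 were higher, *Phlda3* at 1.58 (1.40 to 1.79) and *Bbc3*, which encodes PUMA, at 1.51 (1.27 to 1.79). *Trp53inp1* of that list stood lower without a call, with 55.7 CPM in WT and 41.3 in AKO cells. Of 9 NRF2 targets 1 was higher, *Slc48a1*, a heme transporter, at 1.98 (1.64 to 2.40), and *Txnrd1* stood lower without a call, with 148 CPM in WT and 116 in AKO cells. Of 2 hypoxia targets with enough UMIs 0 were called. The median ratios of these lists were 1.02, 1.09, 1.05 and 0.951, against 1.02 over all genes, of which 6.88% were called higher. With fibroblasts kept in, *Phlda3* at 1.37, *Bbc3* at 1.48 and *Slc48a1* at 1.48 were no longer called, and *Sdf2l1* was, at 1.57.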
